A study of Mus musculus with 2 samples.

Results

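The cells described here were 150 capillary endothelial cells of the mouse lung that carried transcripts of Esm1, out of 4071 cells kept from 2 single-cell libraries. They numbered 121 of 2745 kept cells in the library labelled WT and 29 of 1326 in the library labelled KO. A member had 500 or more detected genes and no more than 10% mitochondrial UMIs, where a UMI is a molecular tag that counts 1 captured transcript. It also had at least 3 of 6 endothelial genes (Pecam1, Cdh5, Cldn5, Egfl7, Ramp2, Calcrl), at least 2 Esm1 UMIs, and no more than 2 of 6 genes of aerocytes, the large capillary cells of the alveolus. At most 1 gene each was allowed from 5 arterial, 5 venous and 6 tip-like genes. Esm1 and these 28 other genes therefore chose the cells, and their levels are given as descriptions.

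The study is titled as a model of hereditary haemorrhagic telangiectasia type 2, a vascular disorder known to arise from loss of the BMP receptor gene Acvrl1. Both libraries came from lungs of C57BL/6J mice aged 10 to 12 weeks, sorted for VE-cadherin and against CD45, and were built with the 10x Genomics 3' v3 kit. The labels give WT and KO only. The deleted gene, the promoter or Cre line that drove the deletion, any inducing agent and the number of mice per library are not given in the sources used here. With 1 library per genotype there was no replicate and no test, so each level is given with a 95% exact Poisson interval and each share with a 95% exact binomial interval, both covering counting error only.

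Esm1 encodes endocan, a secreted proteoglycan of endothelial cells that is widely used as a marker of tip cells, the leading cells of vascular sprouts. General capillary cells of the lung carry Gpihbp1, Plvap and Kit, while aerocytes carry Car4 and Ednrb. Notch signalling between endothelial cells runs from ligands such as Dll4 through receptors such as Notch1 to targets such as Hey1 and Nrarp, restrains sprouting and favours arterial fate. Efnb2, an ephrin ligand, and Cxcl12, a chemokine, are well known arterial genes.

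The 2 libraries held 25667220 and 17864581 UMIs in 3482 WT and 2196 KO barcodes. They shared 12 barcode sequences, none of them a member. The depth of the median member was 3982 UMIs in WT and 5066 UMIs in KO, while the members together held 521231 and 139770 UMIs. Of the WT members, 108 had Xist UMIs without Y-linked UMIs and 13 had neither, whereas 20 KO members had Y-linked UMIs without Xist and 9 had neither. Genotype and sex cannot be told apart among the members. Doublet calling marked 1 WT and 0 KO members. Alveolar type 2 cell markers made up more than 2% of UMIs in 2 WT members (at most 12.8%) and in no KO member, and 1 WT member had 41.5% of its UMIs from erythroid genes.

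Markers of the label were checked first. Levels are counts of a gene per 1000000 UMIs of the pooled cells of a class (CPM). Esm1 was at 2062 CPM in WT members and 1274 CPM in the KO members, as it had to under the rule. Ivns1abp, a Kelch-domain protein gene, was at 1358 CPM (interval 1260.1 to 1462) and 1395 (1206 to 1605). Slc45a4, a solute carrier gene, was at 223 (184 to 267) and 372 (278 to 488). In this paragraph and the next, Esm1-negative cells are those of the same gate with 0 Esm1 UMIs and at most 2% alveolar type 2 marker UMIs. The members were not limited in this way. Both genes were far above the Esm1-negative cells, 697 in WT and 198 in KO, which held 233 and 219 CPM of Ivns1abp. Slc45a4 was at 15.5 and 14.1 CPM in them. Gja1, which encodes the gap junction protein connexin 43, was weaker as a marker. It was at 111 and 93.0 CPM in members against 26.7 and 22.3 CPM without Esm1, but cells outside the endothelial gate held 96.4 and 103 CPM, and 5 cells held 92.3% of its KO UMIs.

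All 10 general capillary markers were detected in the members of both libraries, with summed levels of 15968 CPM in WT and 17879 CPM in KO. The 11 aerocyte markers summed to 1301 and 1188 CPM, against 17237 and 17493 CPM in aerocytes. All 10 pan-endothelial markers were present. Platelet and mesothelial markers were at 0, and Ptprc, the defining leukocyte marker, was at 0 in both libraries. Of the 9 leukocyte markers 6 were at 0 in WT and 8 in KO, and the list summed to 192 and 71.5 CPM, against 247 and 92.6 CPM in Esm1-negative cells. Lyve1, a hyaluronan receptor best known from lymphatic vessels, reached 2703 and 2740.2 CPM, but 5 of 7 lymphatic markers (Prox1, Pdpn, Ccl21a, Mmrn1 and Reln) were at 0. The 9 artery markers, 5 of which the gate limits and which include Hey1 and Efnb2, summed to 3143 and 3313 CPM, against 1702 and 1544 CPM in Esm1-negative cells and 5399 and 9881 CPM in arterial cells. General capillary markers were thus all present and aerocyte markers far below their level in aerocytes. The summed artery list, most of it Efnb2 and Hey1, stood between Esm1-negative and arterial cells. Hey1 by itself was at a higher level than in arterial cells in both libraries, but by less than 1.5-fold in WT, as given below. The arterial cells numbered only 26 in WT and 12 in KO. The list without these genes was not summed.

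Esm1 was spread unevenly over the members. WT members held 2 to 50 Esm1 UMIs with a median of 4, and KO members 2 to 24 with a median of 3. Just inside the threshold were 31 WT and 11 KO cells with exactly 2 UMIs, and just outside it were 75 WT and 11 KO cells of the same gate with 1 UMI. At the upper end, 36 WT and 8 KO members had 10 or more. The 5 highest cells held 19.3% of the Esm1 UMIs in WT and 47.8% in KO. Esm1 also occurred outside the capillary gate: 56 WT and 31 KO endothelial cells with at least 2 UMIs were kept out, 31 and 28 of them by the tip-like genes and 23 and 3 by the arterial genes. Cells with at least 3 of the 5 arterial genes held Esm1 at 660.2 CPM in WT (26 cells) and 450.3 CPM in KO (12 cells), whereas aerocytes were at 26.2 and 8.23 CPM.

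Esm1-positive capillary cells made up 6.43% of 1881 endothelial cells in WT (interval 5.37 to 7.64%) and 5.03% of 577 in KO (3.39 to 7.14%). Within the same capillary gate the shares were 10.9% of 1107 (9.15 to 12.9%) and 10.5% of 277 (7.12 to 14.7%). The intervals overlapped under both denominators. Because a threshold of 2 UMIs depends on depth, every cell was also thinned to 1500 UMIs, leaving out the 123 WT and 60 KO endothelial cells below that depth. The endothelial rule and the gate were applied again to the thinned counts, so further endothelial cells were lost in both libraries. Cells excluded before could also enter the capillary gate, which held 290 KO cells after thinning against 277 before. The gate then took 94 of 1469 WT endothelial cells (6.40%) and 18 of 481 KO endothelial cells (3.74%). Within the gate these were 9.42% in WT and 6.21% in KO. With cells of 1000 or more genes and no more than 5% mitochondrial UMIs, the shares within the gate were 12.6% in WT and 16.4% in KO, so their order turned. The order also turned with KO cells limited to those with Y-linked UMIs alone. The KO shares were then 6.60% of 303 endothelial cells and 13.7% of 146 cells in the gate. Of all KO endothelial cells, 83 had Xist UMIs alone. Only 8 of these were in the capillary gate, and none was a member, so most were kept out whatever their Esm1 count. The intervals of the 2 libraries overlapped in each of these settings.

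The members were then compared with cells that passed the same gate but had 0 Esm1 UMIs, 911 in WT and 237 in KO. A gene was called higher or lower if it differed at least 1.5-fold with level intervals that did not overlap, at a mean of at least 50 CPM, leaving out the genes of the gate. Without further limits 948 of 3533 genes (26.8%) were higher and 340 (9.62%) lower in WT members, and 425 of 3631 (11.7%) and 236 (6.5%) in KO members. Scaling by the median of ratios turned this split to 262 higher and 624 lower in WT and to 163 and 413 in KO. Alveolar type 2 markers exceeded 2% of UMIs in 214 WT and 39 KO Esm1-negative cells, and the median log2 ratio over all genes was 0.32 and 0.23. Limiting both groups to cells at or below 2% left 697 WT and 198 KO Esm1-negative cells and brought that median to -0.01 and 0.00. Under this limit 150 of 3719 genes (4.03%) were higher and 159 (4.28%) lower in WT, and 118 of 3727 (3.17%) and 76 (2.04%) in KO. Among 3395 genes measured in both libraries, 54 (1.59%) were higher in both and 27 (0.795%) lower in both. The comparisons with Esm1-negative cells that follow all carry this limit. Among ranked genes the limit changed the lower side most: all 12 of the highest-ranked genes without the limit were still called in both libraries, but only 1 of the 12 lowest-ranked, Sema3c.

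Some genes of the Notch pathway were higher in both libraries: Notch1, Dll4, Hey1 and Nrarp were called higher in each, while Lfng was called lower in WT. These were 4 of 13 measured pathway genes in WT and 4 of 14 in KO, against 4.03% and 3.17% of all genes called higher. The list's median log2 ratio was -0.18 in WT and 0.34 in KO. The ligand gene Dll4 was at 644 CPM in WT members and 201 in WT Esm1-negative cells, a ratio of 3.20 (2.78 to 3.69). In KO the values were 537 and 187, a ratio of 2.86 (2.15 to 3.79). Dll4 was detected in 81.8% of WT members and 86.2% of KO members, against 43.0% and 43.4% of Esm1-negative cells. Cells outside the endothelial gate, which should lack it, showed it in 5.67% and 2.80% at higher median depths of 15512.5 and 18398 UMIs. With the same members thinned, the shares were 56.9% and 58.6% of members against 24.5% and 21.2%. The receptor gene Notch1 was 2.45-fold higher in WT (2.18 to 2.74) and 2.38-fold in KO (1.96 to 2.89). Of the targets, Hey1, a transcriptional repressor, was 2.21-fold (1.96 to 2.49) and 2.56-fold (2.03 to 3.22) higher. Nrarp, a feedback inhibitor of Notch signalling, was 2.84-fold (2.13 to 3.77) and 3.0-fold (1.84 to 4.80) higher. With the gate redrawn on thinned counts, its KO ratio turned to a log2 value of -0.38. In the original members thinned to that depth, Nrarp was found in 31.0% of KO members against 8.24% of Esm1-negative cells. Hes1, another target, was not called: its ratios were 0.808 and 0.995.

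The ephrin ligand genes Efnb2 and Efna1 were higher as well, whereas Efnb1 was not called, with log2 ratios of -0.11 and 0.14. Efnb2 was at 2321 against 1059 CPM in WT (2.19-fold, 2.04 to 2.35) and 2347 against 1029.8 CPM in KO (2.28-fold, 2.00 to 2.59). Efna1 was 3.02-fold (2.61 to 3.50) and 3.15-fold (2.30 to 4.28) higher. The chemokine gene Cxcl12 was at 1911 against 841 CPM in WT and 1302 against 467 CPM in KO, ratios of 2.27 (2.10 to 2.45) and 2.79 (2.32 to 3.33), although 5 cells held 70.3% of its KO UMIs. Its receptor gene Cxcr4, which marks tip cells in several vascular beds, was at 255 against 41.7 CPM in WT and 165 against 9.37 CPM in KO. Cxcr4 thus had one of the wider gaps, 6.12-fold (4.70 to 7.99) and 17.6-fold (7.58 to 45.4), with 73.9% of its KO UMIs in 5 cells. Of 15 measured genes on the list of angiogenesis and tip cell genes, Dll4, Cxcr4 and Plvap were called higher in both libraries, against 1.59% of all genes. Plaur and Flt1 were called higher in WT, and Pdgfb and Ets1 lower in WT, against 4.03% and 4.28% of all genes.

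**Figure D1:**
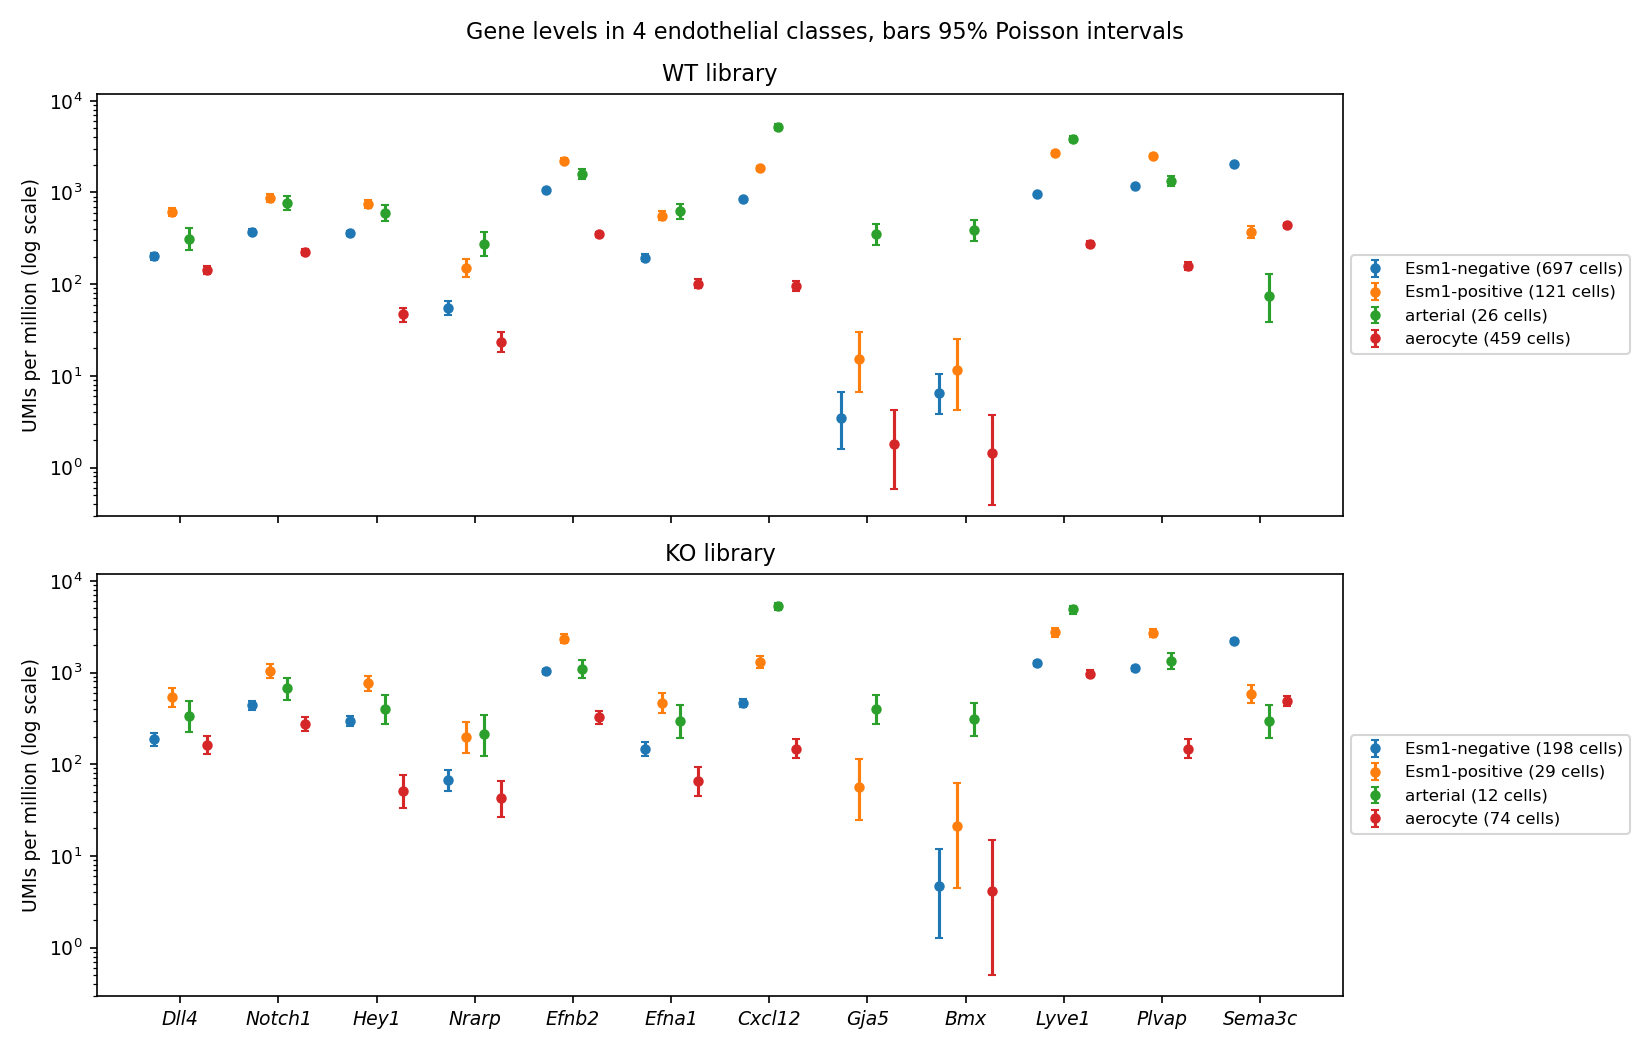
Levels of 12 genes in CPM on a log axis, with 95% Poisson intervals, in Esm1-negative cells (at most 2% alveolar type 2 marker UMIs), Esm1-positive cells, arterial cells and aerocytes of each library, levels of 0 not drawn. Dll4, Notch1, Hey1 and Efnb2 were higher in Esm1-positive than in Esm1-negative cells in both libraries, while Gja5 and Bmx, which the gate limits, reached at most 57.2 CPM outside arterial cells.

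Sequence just upstream of the start of transcription is shown for Esm1, the gene that chose the cells, and for Dll4 and Cxcl12, which were higher in the members. The 250 bases before each start are from RefSeq (GRCm38.p6), 5′ to 3′ on the plus strand, which carries all 3 genes. The core of the motif bound by the Notch transcription factor Rbpj, TGGGAA on either strand (TTCCCA in reverse), was searched and is in capitals where found. Esm1 spans chromosome 13, 113209659 to 113218098, Dll4 chromosome 2, 119325784 to 119335962, and Cxcl12 chromosome 6, 117168535 to 117181367, in GENCODE M21 on GRCm38.
Esm1: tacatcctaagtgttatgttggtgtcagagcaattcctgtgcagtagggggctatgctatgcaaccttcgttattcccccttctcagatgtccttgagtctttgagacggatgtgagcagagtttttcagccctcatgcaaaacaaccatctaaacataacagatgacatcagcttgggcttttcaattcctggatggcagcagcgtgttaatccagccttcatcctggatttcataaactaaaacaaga
Dll4: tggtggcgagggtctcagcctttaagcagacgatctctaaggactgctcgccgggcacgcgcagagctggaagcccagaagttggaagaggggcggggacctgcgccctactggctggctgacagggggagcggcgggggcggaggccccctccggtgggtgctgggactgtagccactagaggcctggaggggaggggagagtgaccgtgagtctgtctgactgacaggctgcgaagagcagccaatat
Cxcl12: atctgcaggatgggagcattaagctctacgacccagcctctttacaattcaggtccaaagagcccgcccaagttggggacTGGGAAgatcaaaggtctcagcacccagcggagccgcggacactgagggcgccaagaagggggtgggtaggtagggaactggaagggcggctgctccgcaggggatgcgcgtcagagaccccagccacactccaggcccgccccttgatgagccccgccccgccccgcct
A match lay in the Cxcl12 window, 170 bases before its start. Over 8 genes described here that have an entry (Esm1, Ivns1abp, Dll4, Nrarp, Efnb2, Efna1, Notch1 and Cxcl12), 1 of 10 start sites held these letters, against 21.6% of 32851 promoter windows of the same length. None of the windows of the Notch and ephrin genes among them held a match.

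Genes of several surface and secreted proteins were in the higher group too. Plvap, the protein of endothelial fenestral diaphragms, was 2.25-fold (2.11 to 2.40) and 2.44-fold (2.16 to 2.75) higher, at 2615 and 2719 CPM in members. Lyve1 was 2.97-fold (2.78 to 3.17) and 2.17-fold (1.93 to 2.44) higher. The lymphatic marker list that holds Lyve1 summed to 2841 CPM in WT and 2933 CPM in KO members. In arterial cells its sum was larger, at 3881 and 4915 CPM. Cxcl16, a membrane-bound chemokine, was 4.29-fold (3.32 to 5.55) and 5.15-fold (2.97 to 8.88) higher, and Cx3cl1, the other membrane-bound chemokine, 2.52-fold (1.74 to 3.61) and 3.26-fold (1.66 to 6.17). The matrix protein gene Sparcl1 was at 1042 against 494 CPM in WT and 729.8 against 218 CPM in KO. Abi3bp, another secreted matrix protein gene, was 2.13-fold and 2.59-fold higher. Icam1, the leukocyte adhesion molecule, was at 165 against 108 CPM in WT and 336 against 68.0 CPM in KO, where 5 cells held 72.3% of its UMIs.

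Several enzyme genes were higher as well. Of 8 measured solute carriers, Slc45a4 was called higher in both libraries and Slco3a1 and Slc6a6 lower, against 1.59% and 0.795% of all genes. Lpl, the lipoprotein lipase, was 1.53-fold and 1.90-fold higher, and Ace, angiotensin-converting enzyme, 1.65-fold and 1.60-fold. Fmo2, a lung monooxygenase, was at 965 against 338 CPM in WT and 272 against 93.7 CPM in KO. The level of Fmo2 was thus lower in KO in both classes, while its ratio was 2.86 in WT and 2.90 in KO. Slc16a9, a monocarboxylate transporter family gene, was 2.18-fold and 2.31-fold higher, and Endod1 2.64-fold and 3.61-fold.

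Genes downstream of BMP receptors were partly higher. Of 8 measured target genes, Id3, Smad6 and Hey1 were called higher in both libraries and none was called lower in both. The background for the lists of this paragraph is 1.59% of all genes higher in both and 0.795% lower in both. Id3, an inhibitor of helix-loop-helix factors, was at 1778 against 1145 CPM in WT and 1467 against 909 CPM in KO. The inhibitory Smad6 was 2.16-fold (1.92 to 2.42) and 1.89-fold (1.56 to 2.28) higher. Among 10 receptors, ligands and Smads measured in both, the co-receptor gene Eng was called higher in both, at 1.70-fold (1.58 to 1.83) and 1.80-fold (1.59 to 2.04). Smad5 was called lower in WT. Acvrl1 was not called, with ratios of 0.981 (0.899 to 1.07) and 1.16 (0.985 to 1.35). Among 15 lung endothelial transcription factors, Sox18 and Foxo1 were higher in both and Fli1 lower in both.

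On the lower side, Sema3c, a secreted semaphorin and general capillary gene, had 1 of the largest gaps. It stood at 390.2 CPM in WT members against 2038 without Esm1 (ratio 0.191, 0.165 to 0.221) and at 587 against 2203 CPM in KO (ratio 0.266, 0.211 to 0.332). Slc6a6, the taurine transporter, was at 54.3 against 269 CPM in WT and 14.3 against 199 CPM in KO, the last resting on 2 UMIs in members. Scn7a, a sodium channel family gene, was at 334 against 1338 CPM and 372 against 1222 CPM. Sgk1, a serum- and glucocorticoid-induced kinase, had ratios of 0.413 (0.325 to 0.519) and 0.222 (0.135 to 0.347).

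Further genes were lower in both libraries, chosen after their values were seen. Podxl (podocalyxin) had ratios of 0.564 and 0.510, and Emcn (endomucin) 0.604 and 0.598. Thbd, the anticoagulant thrombomodulin, stood at 728 against 1251 CPM and 816 against 1356 CPM. The intermediate filament gene Vim had ratios of 0.483 and 0.571, the tubulin gene Tubb2a 0.514 and 0.557, and Rdx, the cortical linker radixin, 0.511 and 0.472, but the KO value of Rdx turned to a log2 ratio of 0.09 with the gate redrawn on thinned counts. The general capillary list divided: of 15 genes measured in both, Plvap, Lpl, Cxcl12 and Hilpda were higher and Sema3c lower, and Aplnr, Hpgd and Wfdc1 were called lower in WT, while Gpihbp1 had ratios of 1.16 and 1.45 and Kit of 0.756 and 1.14, neither called. None of 7 glycolysis and hypoxia genes, 11 immediate early genes or 5 cell cycle genes was called in the same direction in both. Over all genes 1.59% were higher in both and 0.795% lower in both, so lists this short would hold few such calls.

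**Figure D2:**
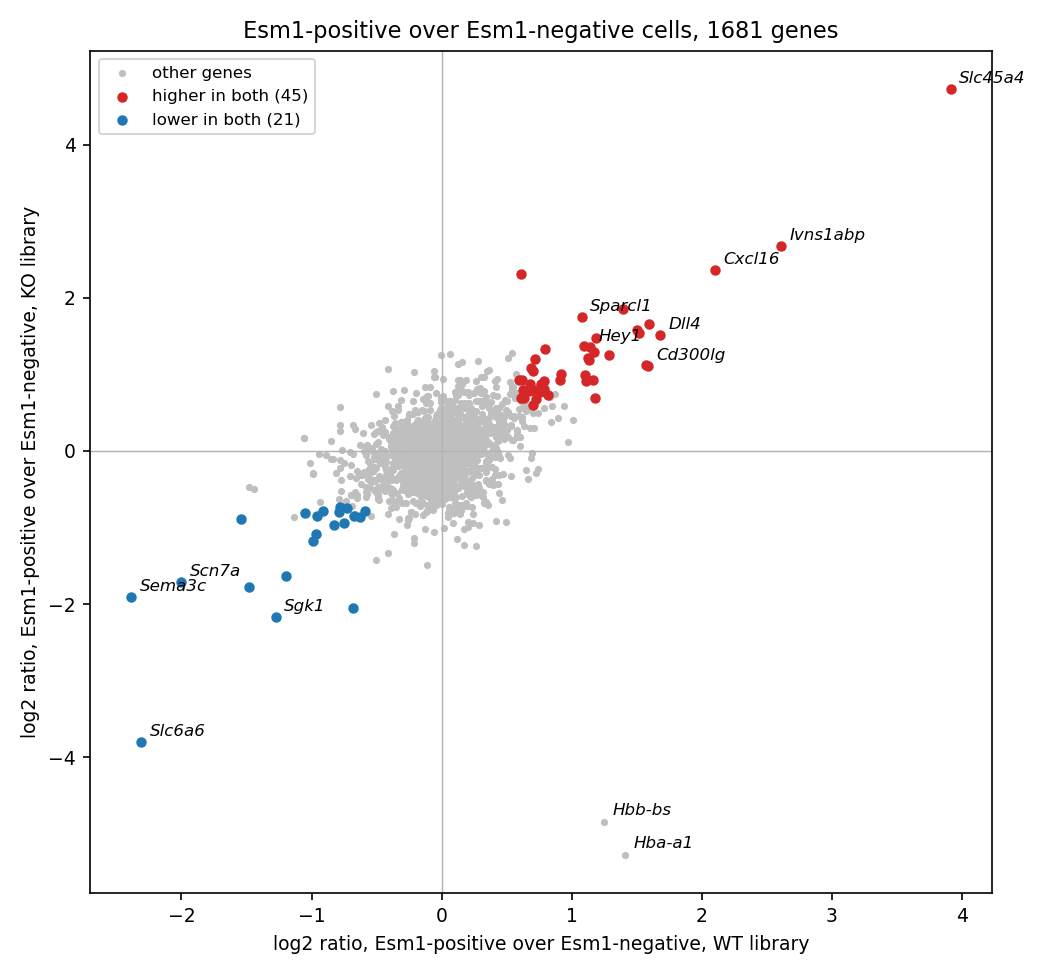
The log2 ratio of Esm1-positive over Esm1-negative cells (at most 2% alveolar type 2 marker UMIs) in the WT library on the x axis and in the KO library on the y axis, for 1681 genes averaging 100 CPM or more in both. Red points mark the 45 genes (2.68%) called higher in both and blue points the 21 (1.25%) called lower in both. Hbb-bs and Hba-a1 were the 2 genes (0.119%) with opposite calls.

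Levels were also read by the number of Esm1 UMIs, and only some genes followed it in steps. From cells with 0, 1, 2 to 4, 5 to 9 and 10 or more Esm1 UMIs, WT Dll4 went through 201, 347, 471, 602 and 932 CPM and Ivns1abp through 233, 694, 847, 1579.9 and 2169.9 CPM. In KO, Dll4 was at 187, 205, 546, 796 and 426 CPM and Ivns1abp at 219, 486, 1058, 2025 and 1903 CPM, where the 5 to 9 class held 3 cells and the highest 8, so the KO order was not kept at the top. Slc45a4 was higher in each next class of both libraries, from 15.5 to 430.1 CPM in WT and from 14.1 to 676 CPM in KO. Sema3c was lower in each next class, through 2038, 1517, 602, 306 and 137 CPM in WT and 2203, 1229, 779, 362 and 250.4 CPM in KO. Other genes kept no such order. WT Cxcl12 was at 841, 2006, 2042, 2147 and 1538 CPM, Efnb2 at 1059, 1650.2, 2339, 2531 and 2137 CPM and Hey1 at 358, 592, 755, 576 and 1004 CPM. Gpihbp1 ranged from 1496 to 1859 CPM in WT, whereas in KO it was at 1584, 1895, 2198, 1519 and 2779 CPM, the last above the class without Esm1. The classes were not matched for depth.

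**Figure D3:**
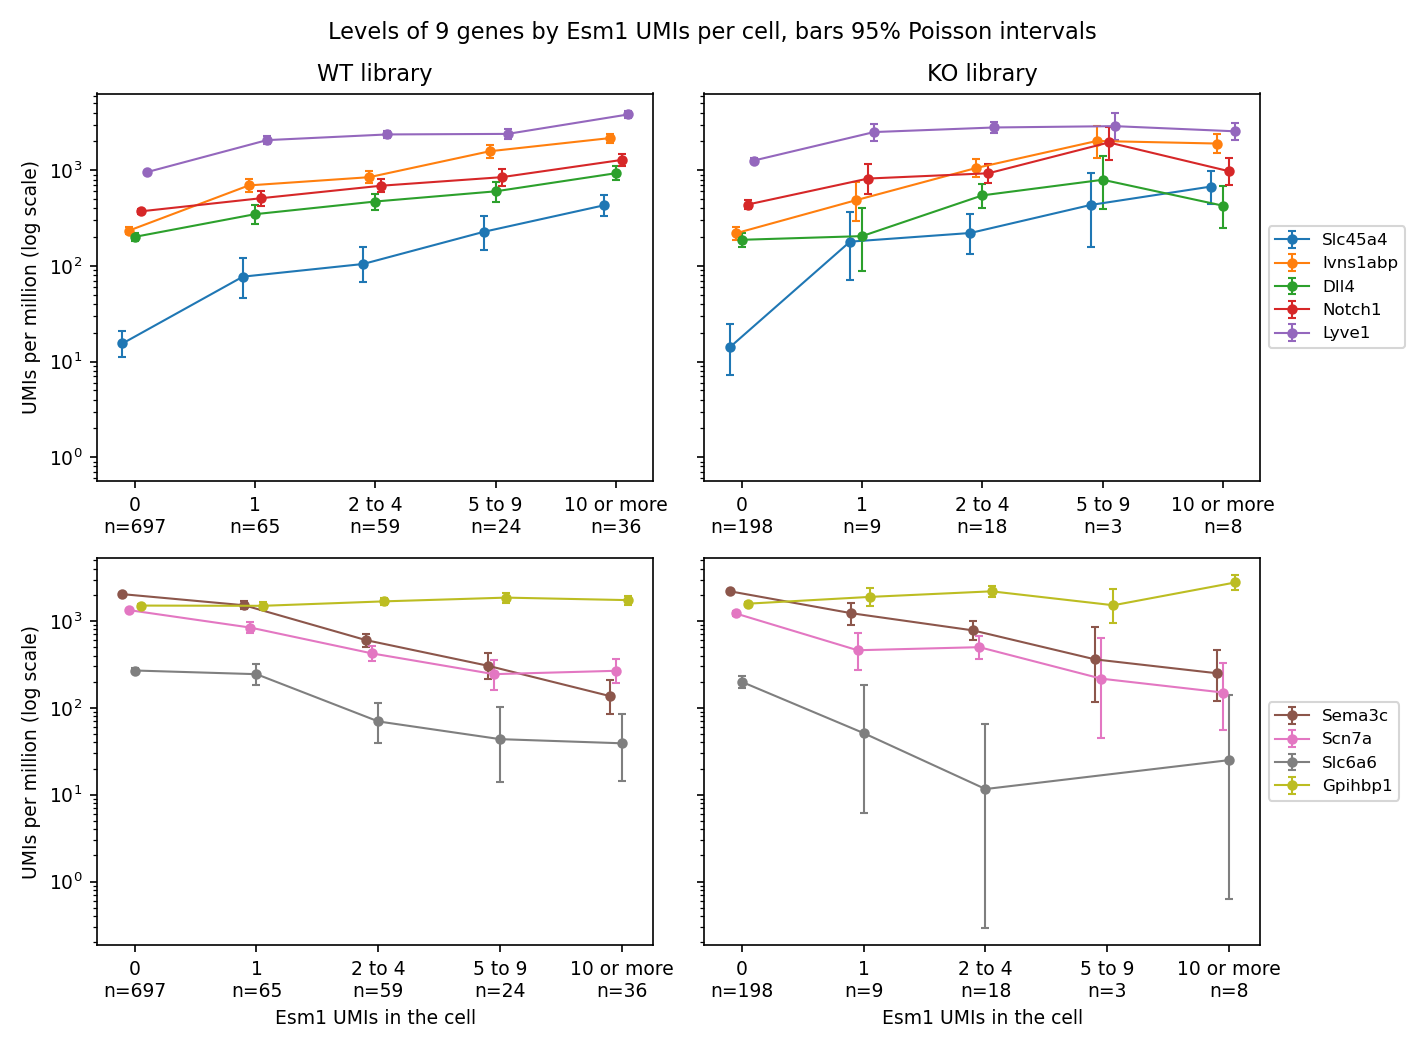
Levels of 9 genes in CPM on a log axis (95% Poisson intervals) against the number of Esm1 UMIs in the cell, for cells of the capillary gate with at most 2% alveolar type 2 marker UMIs, with the number of cells under each class, levels of 0 not drawn. Sema3c was lower in each next class in both libraries, and Slc45a4 higher.

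Beside arterial cells, which also carried Esm1, the members differed in both directions: 268 of 3665 genes (7.31%) were higher and 257 (7.01%) lower in WT, and 171 of 3684 (4.64%) and 206 (5.59%) in KO. The arterial cells were chosen by Gja5, Bmx, Dkk2, Esr2 and Fbln5, so those genes are not compared. Several general capillary genes were higher in the members: Kit was 6.82-fold (4.07 to 12.3) and 7.37-fold (3.60 to 17.5) higher, Gpihbp1 4.82-fold and 2.78-fold, and Lpl 4.78-fold and 2.76-fold. Vwf, the clotting factor carrier of larger vessels, was at 121 against 1635 CPM in WT and 114 against 1038 CPM in KO. Mgp, matrix Gla protein, was at 28.8 against 1567 CPM in WT and 14.3 against 6554 CPM in KO. Cxcl12, which is on the general capillary list as well, was lower in the members, with ratios of 0.354 (0.322 to 0.389) and 0.247 (0.207 to 0.295). The Notch genes did not follow 1 direction: Notch1 ratios were 1.12 and 1.55, Hey1 ratios 1.26 and 1.91, and Nrarp ratios 0.539 and 0.942. Dll4 was called higher in WT members (1.95-fold, 1.45 to 2.68) and not called in KO (1.59-fold, 1.01 to 2.57). Slc45a4, a marker of the members, was also present in arterial cells, at 358 CPM in WT, above the members, and 163 CPM in KO, below them, with ratios of 0.622 and 2.29.

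Against aerocytes, 443 of 3762 genes (11.8%) were higher and 510 (13.6%) lower in WT members, and 269 of 3742 (7.19%) and 288 (7.7%) in KO members. Hey1 was 16.1-fold (13.2 to 19.8) and 14.9-fold (9.56 to 24) higher than in aerocytes, Efnb2 6.33-fold and 7.17-fold, and Plvap 15.8-fold and 18.4-fold. Sema3c, at its low level in the members, was close to aerocytes, with ratios of 0.848 (0.725 to 0.988) and 1.19 (0.913 to 1.53).

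The comparison between genotypes asked what differed in the members of the KO library. Acvrl1, the gene tied to the modelled disease, was at 1189 CPM in WT members (620 UMIs) and 1345 CPM in KO members (188 UMIs), a ratio of 1.13 (0.955 to 1.33). The 3' tags need not lie in a deleted part of a gene, so this value does not check the label. Of 3700 genes at a mean of at least 50 CPM, 99 (2.68%) were higher and 69 (1.86%) lower in KO members, and the median log2 ratio was 0.04. The values that follow are KO over WT for 29 against 121 cells. With every cell thinned to 1500 UMIs and the gate redrawn on the thinned counts, which took 18 KO and 94 WT cells, 31 genes were higher and 19 lower. These cells need not all be original members, so the change is not one of depth alone.

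Several of the genes that were higher in the members than in Esm1-negative cells were not called between the 2 genotypes. Ivns1abp had a ratio of 1.03 (0.872 to 1.21), Dll4 of 0.874 (0.670 to 1.13), Notch1 of 1.20 (0.993 to 1.45), Hey1 of 1.02 (0.812 to 1.26) and Efnb2 of 1.06 (0.933 to 1.20). Lyve1 stood at 2703 CPM in WT and 2740.2 in KO. Among the genes described above as higher in members, Slc45a4 was called higher in KO at 1.67-fold (1.18 to 2.34), Icam1 higher at 2.01-fold (1.38 to 2.91) and Fmo2 lower. Sema3c, which was lower in members, was called higher in KO at 1.58-fold (1.20 to 2.05). Esm1 itself, which chose the cells, was at 2062 CPM in WT members against 1274 CPM in KO members.

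Tmem252, a small membrane protein gene, had the largest ratio among the genes ranked as higher: 322 CPM in KO members (45 UMIs) against 40.3 in WT (21 UMIs), or 7.99-fold (4.66 to 14.1). 5 KO cells held 80% of these UMIs. The ratio of Tmem252 was 5.17 in Esm1-negative cells and 2.12 in aerocytes. Plat, tissue plasminogen activator, was 3.73-fold higher (2.32 to 6.01), and Foxf1, a transcription factor of the lung endothelium, stood at 1524 against 606 CPM, 2.51-fold (2.10 to 3.0). The Foxf1 ratio was 1.81 in Esm1-negative cells and 1.33 in aerocytes. Tmem2, which encodes a cell-surface hyaluronidase, was at 930.1 against 372 CPM, or 2.50-fold (1.99 to 3.14). Stc1, the secreted hormone stanniocalcin, was 3.47-fold higher (1.98 to 6.08) on 27 KO and 29 WT UMIs, against a ratio of 1.14 in Esm1-negative cells. The receptor gene Fgfr3 was 3.57-fold higher (1.93 to 6.61), against 1.24 in Esm1-negative cells. The 5 highest cells held 73.7% of the KO UMIs of Plat and 77.8% of those of Stc1, against 32.9% for Foxf1 and 35.4% for Tmem2. Redrawing the gate on thinned counts turned the log2 ratio of Plat to -0.42 and that of Fgfr3 to -0.07. The other 6 of the 12 ranked higher genes (Hebp1, Colgalt1, Palmd, Cxx1a, Emp1 and Stab1) ran from 2.46-fold to 2.80-fold.

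Ifi204, an interferon-inducible gene, was at 361 CPM in WT members (188 UMIs) and at 0 in KO members. With 3 counts as the floor over the KO members it was at least 16.8-fold lower. It was also at 0 in KO Esm1-negative cells and KO aerocytes, while cells outside the endothelial gate held 41 UMIs in KO and 37 in WT. The small heat shock protein gene Hspb1 was at 35.8 CPM in KO members (5 UMIs) against 280.1 in WT, a ratio of 0.128 (0.0409 to 0.305), and S100a6, a calcium-binding protein gene, at 42.9 (6 UMIs) against 309 CPM. 5 cells held 90.1% of the WT S100a6 UMIs. Its log2 ratio was -0.11 once the 2 WT members above 2% alveolar type 2 marker UMIs were left out, and 0.85 when members needed 1000 genes and no more than 5% mitochondrial UMIs. Scgb3a1, a secretoglobin known from airway cells, was at 265 CPM in WT members and 71.5 CPM in KO members, against 20.9 and 7.03 CPM without Esm1 and 0.258 and 6.33 CPM outside the endothelial gate. Fmo2 had a ratio of 0.294 (0.206 to 0.409), 0.278 in Esm1-negative cells and 1.25 in aerocytes. Junb, an AP-1 factor, stood at 42.9 against 194 CPM. The other 6 ranked lower genes (Ankrd12, Sox4, Map7d1, Spry1, Psmb3 and Mylip) had ratios from 0.251 to 0.403, of which Map7d1 turned to a log2 ratio of 0.06 with the gate redrawn on thinned counts.

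Of the 12 ranked higher genes, 6 were also called higher in Esm1-negative cells (background 2.62%), 5 in aerocytes (3.22%) and none in cells outside the endothelial gate (2.42%). Of the 12 ranked lower genes, 8 were called lower in Esm1-negative cells (3.61%), 4 in aerocytes (3.06%) and 1 outside the endothelial gate (2.11%). Over all genes called, of 99 higher genes, 21 were called higher in Esm1-negative cells and 23 in aerocytes, while outside the endothelial gate 9 were called higher and 11 lower. Of 69 lower genes, 34 were called lower in Esm1-negative cells, 26 in aerocytes and 10 outside the gate, where 7 were called higher. These classes came from the same 2 libraries. The Esm1-negative cells carried the limit on alveolar type 2 marker UMIs, while members and aerocytes did not. Those markers summed to 10562 CPM in WT and 2747 CPM in KO members, and to 18440 and 1944 CPM in aerocytes. Only gate genes were left out of the 99 and 69, so markers of other cell types and sex-linked genes could count. What this added to the overlaps was not tested. Whether a ratio differed between classes was not tested.

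**Figure D4:**
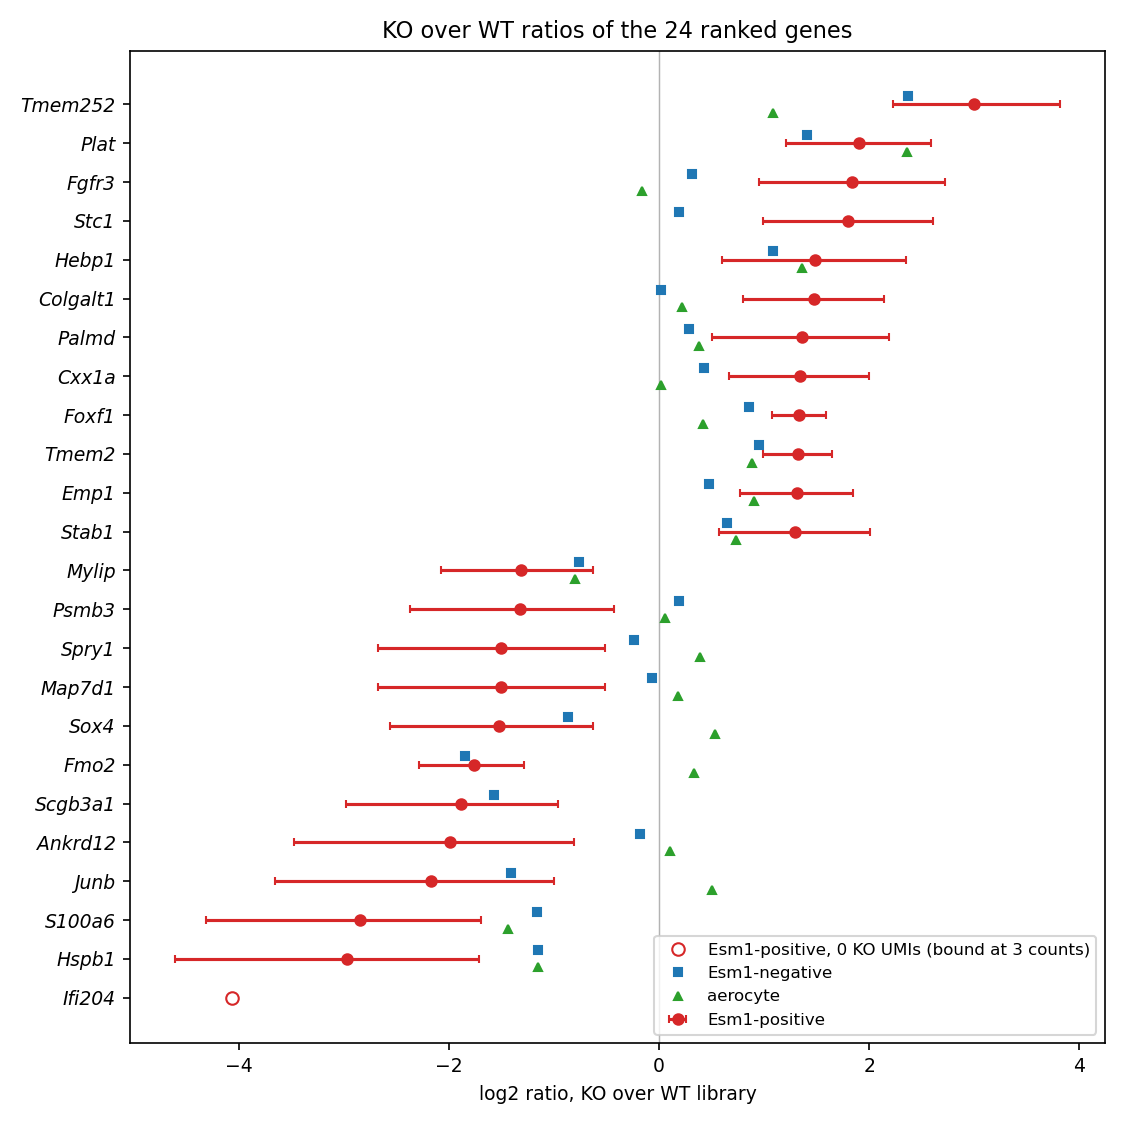
KO over WT log2 ratios of the 24 ranked genes in Esm1-positive cells (circles, with 95% counting intervals), Esm1-negative cells with at most 2% alveolar type 2 marker UMIs (squares) and aerocytes (triangles), with ratios left out where a class had no UMI in either library. The open circle is Ifi204, at 0 in KO and drawn at the bound given by 3 counts.

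Gene lists were read against the 2.68% of all genes called higher and 1.86% called lower. Interferon response genes had 6 of 16 measured members called higher and none lower, with a median log2 ratio of 0.57, among them Irf7 (4.30-fold), Ifi44 (5.59-fold), Isg15 (2.24-fold), Ifitm3 (1.56-fold) and Bst2 (1.56-fold). In Esm1-negative cells the ratios were 1.05 for Irf7, 1.01 for Isg15 and 2.22 for Ifi44. Ifi204, an interferon-inducible gene that is not on this list, was lower in KO members, as given above. Matrix and basement membrane genes had 4 of 15 higher and none lower, with a median of 0.65: Fn1, fibronectin, at 143 against 15.3 CPM on 20 and 8 UMIs (95% of the KO UMIs in 5 cells), Adamts9, a secreted protease, at 150.2 against 28.8 CPM, Sparc at 1.93-fold and Timp3 at 1.65-fold. Among 11 shear stress genes, Klf2 (1.54-fold), Klf4 (2.09-fold) and Heg1 (1.89-fold) were higher and none lower. Among 12 Notch genes, the target Hes1 (1.88-fold) and the glycosyltransferase Lfng (2.83-fold) were higher and none lower. Of 13 immediate early genes, Junb, Egr1 and Ier2 were lower and none higher, with Egr1 at 14.3 CPM in KO (2 UMIs) against 90.2 in WT. Of 9 BMP target genes, Stc1 was called, with Id1 at 1.29-fold (1.07 to 1.56) and Id3 at 0.865-fold (0.739 to 1.01). None of the 15 angiogenesis and tip cell genes, 7 VEGF pathway genes or 9 glycolysis and hypoxia genes was called. With KO cells limited to the 20 members with Y-linked UMIs alone, 86 genes were higher and 63 lower, and no WT member had Y-linked UMIs, so no comparison within 1 sex was possible.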

How the data were processed

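Lung endothelial cells of 1 WT and 1 KO library were analysed. The deposited matrices hold whole-number UMI counts per gene and barcode, made by the authors. The submitters' processing notes name Cell Ranger 3.0.1 and the build mm10. The 2 libraries held 25667220 and 17864581 UMIs. Barcodes with 500 or more genes and no more than 10% mitochondrial UMIs were taken as cells and gated by marker detection. Counts of each class were summed per library and divided by the class total (CPM). Levels carry 95% exact Poisson intervals, ratios exact conditional binomial intervals and shares exact Clopper-Pearson intervals, all from scipy 1.17.1 and covering counting error only. A gene was called at 1.5-fold with level intervals apart. The floor for a level of 0 was 3 counts. No test was possible with 1 library per group. Doublets were called per library with Scrublet in scanpy 1.11.5 (37 WT and 12 KO cells) and kept in the results. The calling rule was checked on simulated Poisson counts with planted changes larger than 1.5-fold. These counts held no variation between cells, so they do not check calls where few cells hold most UMIs.

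Genes named by rank had a mean of at least 100 CPM and were the 12 highest and 12 lowest that were called, for the Esm1 comparison by the smaller absolute log2 ratio of the 2 libraries. Mitochondrial, ribosomal, haemoglobin, predicted and sex-linked genes, gate genes, markers of other cell types and genes at least 5-fold higher outside the endothelial gate in both libraries were left out. Up to 4 members of each of 21 gene lists with at least 10 CPM could be named as well. Genes outside this rule, among them several named in the comparison limited to 2% alveolar type 2 marker UMIs, were chosen after their values were seen. The members and lists were chosen with earlier results of these data known. Alternatives changed the Esm1 threshold, cell filter, depth, doublets, KO sex, alveolar type 2 limit, scaling, cell weight and minimum level. Alternatives that combine the alveolar type 2 limit with another choice, and the erythroid limit, were chosen after seeing the data.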

Additional observations from a re-analysis of the deposited data

Results flagged for a closer look

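Some barcodes that failed the cell filter also met the Esm1-positive gate. They numbered 4 of 300 endothelial barcodes outside the filter in WT and 6 of 174 in KO, and they entered no comparison.

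The haemoglobin genes Hbb-bs and Hba-a1 went opposite ways in the 2 libraries when Esm1-positive cells were set against Esm1-negative cells. The log2 ratio in KO minus that in WT was -6.09 for Hbb-bs and -6.68 for Hba-a1. The difference was not tested. Of the WT members, 2 had more than 2% of UMIs from erythroid genes, with 41.5% in 1 cell, and 77 of 121 had none, while no KO member passed 0.0399% and 23 of 29 had none. Among Esm1-negative cells, 1 WT and 1 KO cell passed 2%.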

How the results depend on the processing

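No paired analysis was possible because each genotype had 1 library. The share of Esm1-positive cells among endothelial cells was 4.78% in WT and 3.12% in KO with at least 3 Esm1 UMIs, and 10.4% in WT with at least 1. For KO over WT, the counts of genes higher and lower became 203 and 122 with at least 1 Esm1 UMI, 31 and 19 after thinning (here with the gate redrawn on thinned counts), 50 and 25 at a minimum of 200 CPM, and 556 and 477 when each cell was weighted equally, a setting with no interval in its rule. Of 264 log2 ratios of the 24 ranked genes under alternatives, 243 stayed inside the interval of the main result and 17 left it without reversing. The other 4 reversed: S100a6 to 0.85 with the stricter cell filter, and Plat to -0.42, Fgfr3 to -0.0748 and Map7d1 to 0.0627 after thinning.

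For Esm1-positive over Esm1-negative cells in WT, genes higher and lower numbered 136 and 112 after thinning, 150 and 159 under the alveolar type 2 limit, 262 and 624 with median scaling and 245 and 107 at 200 CPM. Higher genes numbered 590 with at least 1 Esm1 UMI and 372 with equal cell weights, and lower genes 743 at 10 CPM. In KO the counts were 87 and 36 after thinning, 118 and 76 under the limit, 163 and 413 with median scaling, 650 and 510 with equal cell weights and 206 and 113 at 200 CPM. With the limit and thinning together KO gave 69 and 23.

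For ranked genes without the limit, 113 of 216 log2 ratios in WT left the interval of the main result and 9 reversed. In KO, 43 of 240 left it and 10 reversed. With the limit, 16 of 117 left it and 0 reversed in WT, and 13 of 117 left it and 4 reversed in KO. Reversed log2 ratios were all of genes lower in members, except Nrarp. After thinning, WT gave 0.24 for Wbp5, 0.39 for H2afj, 0.26 for Prdx6, 0.44 for Ptp4a1, 0.66 for Gde1 and 0.0822 for Atp11a, and KO 0.0752 for Socs2, 0.34 for Wbp5, 1.33 for Acsl4 and 0.61 for Ptp4a1. Under the limit, WT gave 0.29 for H2afj, 0.0053 for Gde1 and 0.0074 for Atp11a, and KO 0.17 for Socs2, 0.20 for Cat, 0.34 for Rgcc, 0.65 for Acsl4, 0.20 for Neat1 and 0.58 for Gde1. With both, KO gave -0.38 for Nrarp, 0.0874 for Rdx, 0.0157 for Itpripl2 and 0.0668 for Mfap2. The cause was not tested. The 29 KO members limit what could be called.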
